A study of Mus musculus with 12 samples.

Results

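The carbonic anhydrases described here are 10 genes, Car2, Car3, Car4, Car5b, Car7, Car8, Car9, Car12, Car13 and Car14, taken by name from a raw read count table of 38924 mouse genes. The table holds 16 genes of the family, and the 6 not described in full are Car1, Car5a, Car6, Car10, Car11 and Car15. The table comes from RNA sequencing of interscapular brown fat, the heat-producing fat depot between the shoulder blades, with 1 library for each of 12 wild-type C57BL/6J mice. All mice were 14 weeks old after 4 weeks at 1 ambient temperature: 4 mice at 30 °C, which the labels call thermoneutral, 4 at 22 °C, called room temperature, and 4 at 6 °C, called severe cold. Temperature is the only labelled difference between the groups, none carries a transgene, and there is no time course. The 10 names were chosen on the read counts of these same libraries, with earlier results known, so the values of the members, their p-values included, are a description and support nothing beyond it.

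Total counts per library ranged from 18290162 to 32513051, except 86438386 in 22 °C mouse 3, whose library code (8846) also lies apart from the codes of the others (7509 to 7520). Of the 30 °C columns, 2 carry the letter of that group but a number that fits no title in it, and they are called mice A and B. Levels are given as CPM, the counts of a gene scaled to a common library size. The summed level of 12 macrophage markers in mice A and B was 1384 and 1694 CPM, against 521 and 542 in the other 30 °C mice. All 10 brown adipocyte markers were detected at every temperature, with summed levels of 3372 to 5063 CPM at 30 °C, 5471 to 8613 at 22 °C and 14062 to 16481 at 6 °C. The 16 skeletal muscle markers were present in every group and varied widely between mice, from 1022 to 5440 CPM at 30 °C, 1017 to 3890 at 22 °C and 101 to 2019 at 6 °C. The whole depot was sequenced, so fewer cells of a type and less RNA per cell cannot be told apart.

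Carbonic anhydrases interconvert carbon dioxide and water with bicarbonate and a proton, at a zinc ion held by conserved histidines. The isoforms differ mainly in where they sit: Car2, Car3, Car7 and Car13 are cytosolic, Car5b is mitochondrial, and Car4, Car9, Car12 and Car14 face the outside of the cell from the plasma membrane. In fat they are known for supplying bicarbonate to the carboxylases that feed lipid synthesis and the citric acid cycle, and for handling the acid and carbon dioxide that fuel oxidation releases.

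The zinc site is shown first because it separates the members that keep the catalytic histidines from the member that does not. Each line gives 27 coding bases from the GENCODE M21 transcript (GRCm38), 5′ to 3′ on the gene's own strand. The capitals mark the codons aligned to the first and second zinc-binding histidine codons of Car2, the standard reference of the family.
Car2 (chr3:14895057-14895083, + strand): ttgatccagtttCACtttCACtggggc
Car3 (chr3:14866838-14866864, + strand): cttcgccaattcCATcttCACtggggc
Car13 (chr3:14650694-14650720, + strand): ttgcggcagttcCATttgCACtggggg
Car5b (chrX:163991408-163991434, - strand): ctgaagcagtttCATtttCATtgggga
Car14 (chr3:95900303-95900329, - strand): gcagcccagctcCACctgCACtggggt
Car8 (chr4:8221607-8221633, - strand): ctgtatgaagttAGAtttCACtgggga
Both capital codons encode histidine in all of these except Car8, which has AGA, an arginine codon, at the first site. Counting the third site as well, 9 of the 10 members held 3 of 3 histidine codons and Car8 held 2 of 3. Over all codons aligned to Car2, identity in bases was 63.5% for Car3, 61.2% for Car13, 58.7% for Car5b, 58.3% for Car7, 51.8% for Car8, 47.2% for Car14 and 46.3% for Car4. The longest exact run that any 2 transcripts of the family shared was 32 bases, between Car5a and Car5b, followed by 30 bases between Car2 and Car13.

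Cooling did not move the family as a block. Car3, by far the most abundant member, held its level at 22 °C within the spread between mice and was 7.57-fold lower at 6 °C than at 30 °C. Car13 was higher at each lower temperature, Car7 was lower at 22 °C and stayed there at 6 °C, Car4 was lower at 6 °C alone, and Car14 was more than 2-fold higher at 22 °C than at either other temperature. Car5b also had its highest mean at 22 °C, with 1 mouse far above the rest, Car8 was modestly higher below 30 °C, and Car2 did not pass the test at any step. Car9 and Car12 were too low to test.

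CPM values follow TMM scaling of library size, and differences are log2 fold changes from edgeR's quasi-likelihood test over 14870 genes, with Benjamini-Hochberg adjusted p-values and a threshold of 0.05. For 6 °C against 30 °C, 2 of the 8 tested members were higher (Car8, Car13) and 3 lower (Car3, Car4, Car7), where 56.8% of all tested genes passed the threshold, 25.3% higher and 31.5% lower. For 22 °C against 30 °C, 4 were higher (Car5b, Car8, Car13, Car14) and 1 lower (Car7), against 44.6% of all genes, 21.8% higher and 22.8% lower. For 6 °C against 22 °C, 1 was higher (Car13) and 3 lower (Car3, Car4, Car14), against 34.2% of all genes, 16.9% higher and 17.4% lower. The difference between the steps, meaning the second log2 change (22 to 6 °C) less the first (30 to 22 °C), passed for 4 members (Car7 positive; Car3, Car5b and Car14 negative), against 29.3% of all genes, 14.3% positive and 15.0% negative. The members' median log2 change was -0.05, 0.49, -0.31 and -0.63 in these 4 contrasts, and that of all tested genes was -0.11, -0.02, -0.03 and -0.04. Shares of called genes this large in the whole table mean that a count of called members says little about the family.

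Without 22 °C mouse 3 the counts for the temperature pairs were the same, and the step difference passed for 3 members, losing Car5b. Without mice A and B, an alternative chosen after seeing the data, 1 member was higher and 3 lower at 6 °C against 30 °C, and 2 were higher and 1 lower at 22 °C against 30 °C. The calls lost were those of Car8 in both comparisons and that of Car5b at 22 °C.

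**Figure D1:**
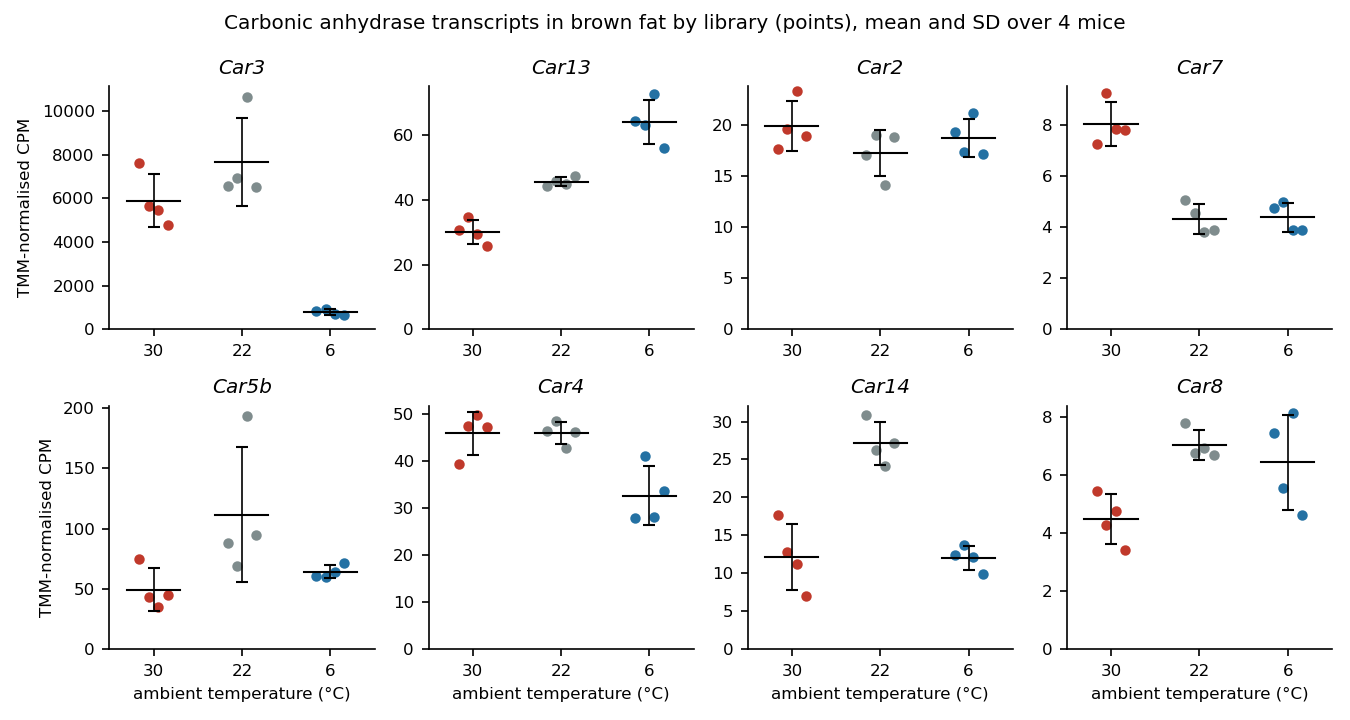
TMM-normalised CPM of the 8 tested members (vertical axes, each from 0) at 30, 22 and 6 °C; points are single mice, the line is the mean and the bar the SD over 4 mice. Car3 drops only at 6 °C, Car13 climbs at each step, Car7 drops at the first step, and Car14 stands highest at 22 °C.

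The cytosolic isoforms include the most abundant and the steadiest members. Car3 (chr3:14863512-14872523, + strand, ENSMUSG00000027559) encodes a cytosolic isoform with weak carbon dioxide hydration activity that is abundant in adipocytes and in slow muscle. Its level was 7618, 5646, 5482 and 4786 CPM in 30 °C mice 1, 2, A and B. At 22 °C it was 6557, 6911, 10642 and 6522 CPM in mice 1 to 4, and at 6 °C it was 848, 919, 706 and 637 CPM. All 6 °C mice lay far below every mouse of the other groups, while the 30 and 22 °C ranges overlapped and 22 °C mouse 3 stood highest. The log2 change was -2.92 ± 0.20 (SE; adjusted p = 2.37e-07) at 6 °C against 30 °C and -3.30 ± 0.21 (adjusted p = 1.66e-06) against 22 °C. At 22 °C against 30 °C it was 0.38 ± 0.19 (adjusted p = 0.119), and the step difference was -3.68 ± 0.31 (adjusted p = 3.96e-05). Without 22 °C mouse 3 the last 3 values were -3.08, 0.17 and -3.26. Leaving out 30 °C mouse 1, the highest of its group, brought 22 °C against 30 °C past the threshold at 0.53 (adjusted p = 0.0343).

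Car3 set the total of the family. It made up 97.0 ± 0.3% (SD, n = 4) of the CPM of all 16 family genes at 30 °C, 96.5 ± 0.3% at 22 °C and 78.4 ± 2.8% at 6 °C. Its rank among all genes by CPM ran from 7 to 11 at 30 °C, 9 to 15 at 22 °C and 112 to 180 at 6 °C. It took 0.587 to 0.856% of a library's counts at 30 °C, 0.625 to 1.04% at 22 °C and 0.058 to 0.086% at 6 °C. With Car3 left out, the rest of the family summed to 178 ± 18 CPM at 30 °C, 270 ± 49 at 22 °C and 211 ± 7 at 6 °C (SD, n = 4).

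Muscle markers and white adipocyte markers are given beside Car3 because both tissues carry it. None of the 16 muscle markers passed the threshold between temperatures with edgeR, and 0 had an unadjusted p under 0.05. At 6 °C against 30 °C DESeq2 called 0 and limma voom 1. With their mean level as a covariate the change of Car3 at 6 °C against 30 °C was -2.86 (adjusted p = 4.05e-06). Most of these markers belong to fast muscle or to muscle in general, with Myh7 a slow one, so slow muscle was not tested apart. In 6 °C mice 1 to 4 the muscle sums were 2019, 470, 101 and 1486 CPM, beside 848, 919, 706 and 637 CPM of Car3. The 10 white adipocyte markers, 8 of them tested, summed to 310 to 432 CPM at 30 °C, 345 to 615 at 22 °C and 250 to 394 at 6 °C. At 6 °C against 30 °C 2 were higher and 4 lower, beside 25.3% higher and 31.5% lower of all tested genes. The 8 markers of all adipocytes summed to 15019 to 16891, 21361 to 23203 and 19695 to 21746 CPM at 30, 22 and 6 °C. Of these 8, 4 were higher and 2 lower at 6 °C against 30 °C, beside the same shares of all tested genes. At 22 °C against 30 °C 4 were higher and 0 lower, beside 21.8% and 22.8% of all tested genes. At 6 °C against 22 °C 0 were higher and 2 lower, beside 16.9% and 17.4%. The part of any change in adipocyte makeup in the level of Car3 was not tested.

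Car13 (chr3:14641727-14663002, + strand, ENSMUSG00000027555) encodes another cytosolic isoform, found at moderate levels in many tissues. Its level was 30.8, 34.7, 29.4 and 25.7 CPM in 30 °C mice 1, 2, A and B, 44.3, 45.7, 44.8 and 47.5 CPM in the 22 °C mice and 64.5, 63.2, 72.9 and 56.1 CPM in the 6 °C mice. The 3 ranges did not overlap, and the 22 °C mice were the closest to each other. Car13 rose by 0.60 ± 0.10 (log2, SE; adjusted p = 3.21e-04) from 30 to 22 °C and by 0.49 ± 0.09 (adjusted p = 1.83e-03) from 22 to 6 °C, which is 1.09 ± 0.10 over both (adjusted p = 1.38e-06). The step difference was -0.10 ± 0.16 (adjusted p = 0.678; 95% interval -0.46 to 0.25), so unequal steps were not detected. Car13 passed the threshold in all 3 temperature pairs under each alternative run, with values from 0.78 to 1.17 for 6 °C against 30 °C.

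Car2 (chr3:14886273-14900770, + strand, ENSMUSG00000027562) encodes the fast, widespread cytosolic isoform. Its level was 17.6, 19.6, 23.3 and 18.9 CPM at 30 °C, 17.1, 19.0, 14.1 and 18.8 CPM at 22 °C and 19.3, 17.3, 21.1 and 17.2 CPM at 6 °C, in the mouse order used above. All 3 ranges overlapped. The log2 difference was -0.08 ± 0.12 at 6 °C against 30 °C (adjusted p = 0.561), with a 95% interval of -0.34 to 0.17, and -0.21 ± 0.12 at 22 °C against 30 °C (adjusted p = 0.171; interval -0.46 to 0.05). Scaling by total counts alone, which also moved the median of all genes, made Car2 lower in both comparisons, at -0.40 (adjusted p = 6.06e-03) and -0.47 (adjusted p = 3.39e-03). Red blood cells are rich in Car2 and Car1; the 9 red blood cell markers, all detected in each group, summed to 138 to 182 CPM at 30 °C, 135 to 211 at 22 °C and 86.3 to 206 at 6 °C.

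Car7 (chr8:104534689-104550343, + strand, ENSMUSG00000031883) encodes a cytosolic isoform best known from neurons. Its level was 7.25, 9.24, 7.82 and 7.78 CPM at 30 °C, 5.05, 4.53, 3.80 and 3.87 CPM at 22 °C and 4.75, 4.98, 3.89 and 3.88 CPM at 6 °C. Every 30 °C mouse lay above every other mouse, and the 22 and 6 °C ranges overlapped almost fully. Car7 fell by 0.90 ± 0.14 (log2, SE; adjusted p = 2.99e-04) from 30 to 22 °C and by 0.87 ± 0.14 from 30 to 6 °C (adjusted p = 2.00e-04). From 22 to 6 °C the difference was 0.03 ± 0.14 (adjusted p = 0.886; 95% interval -0.28 to 0.34). The step difference of 0.93 ± 0.25 passed the threshold (adjusted p = 0.0146) but not without 22 °C mouse 4 (0.84, adjusted p = 0.0516). It was also lost with the mouse number as a block, a fit that leaves out mice A and B (0.81, adjusted p = 0.0778). Without mice A and B and with no block it passed (0.99, adjusted p = 0.0319). Schwann cell and nerve markers, 9 of 10 tested, summed to 114 to 168 CPM at 30 °C, 144 to 183 at 22 °C and 143 to 151 at 6 °C. The sums of 10 fibroblast markers (2757 to 5243, 1096 to 1613 and 916 to 1140 CPM at 30, 22 and 6 °C) and of 12 macrophage markers (521 to 1694, 145 to 201 and 238 to 475 CPM) were, like Car7, higher in every 30 °C mouse than in any other mouse. So were those of 12 endothelial markers (1568 to 1933, 1074 to 1211 and 1189 to 1252 CPM). For 10 pericyte and smooth muscle markers this held only barely (992.4 to 1230.6, 791.1 to 991.8 and 788.0 to 843.3 CPM). Of the fibroblast markers 9 were lower at 22 °C and 9 at 6 °C, and of the macrophage markers 12 and 10. Of the endothelial markers 10 and 9 were lower, and of the pericyte and smooth muscle markers 4 and 7, with 1 of the latter higher at each temperature. Of all tested genes 22.8% were lower at 22 °C and 31.5% at 6 °C. The part of these cell types in the level of Car7 was not tested.

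Car5b (chrX:163976822-164027997, - strand, ENSMUSG00000031373) encodes the mitochondrial isoform of wide distribution. Its level was 75.0, 43.0, 34.8 and 44.7 CPM at 30 °C, 88.1, 68.8, 193.7 and 94.4 CPM at 22 °C and 60.5, 60.2, 64.2 and 71.6 CPM at 6 °C. 22 °C mouse 3 was more than 2-fold above any other mouse, 30 °C mouse 1 lay above 1 of the 22 °C mice, and the 6 °C mice were tightly grouped. Car5b rose by 1.18 ± 0.32 (log2, SE; adjusted p = 0.0121) from 30 to 22 °C. At 6 °C it differed by -0.80 ± 0.32 from 22 °C (adjusted p = 0.0751) and by 0.38 ± 0.32 from 30 °C (adjusted p = 0.331), neither past the threshold. The difference from 22 °C did pass with DESeq2 (-0.77, adjusted p = 0.0216), without 30 °C mouse 1 (-0.80, adjusted p = 0.0464) and without 22 °C mouse 2 (-0.97, adjusted p = 0.0402). The step difference was -1.98 ± 0.53 (adjusted p = 0.0183).

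The size of the Car5b values rests in part on 22 °C mouse 3. Without it, 22 °C against 30 °C was 0.76 (adjusted p = 0.0171), 6 °C against 22 °C was -0.37 (adjusted p = 0.224), and the step difference was -1.13, just outside the threshold (adjusted p = 0.0501). Without mice A and B the rise at 22 °C was 0.92 and did not pass (adjusted p = 0.133), nor did the step difference of -1.71 (adjusted p = 0.0788). With the block by mouse number, a fit that also leaves out mice A and B, neither passed (0.61, adjusted p = 0.259, and -1.27, adjusted p = 0.137). The closely related Car5a, the liver isoform, had 1 count in all 12 libraries.

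Some carboxylases use bicarbonate inside mitochondria, so Car5b is set beside a list of genes of bicarbonate-using enzymes. The list also holds Acaca, Acacb and Cad, whose enzymes lie outside the mitochondrial matrix. Cad and Cps1 encode no carboxylase. Of the 9 genes listed 8 were tested. Both at 6 °C and at 22 °C against 30 °C 7 were higher and none lower, with median log2 changes of 0.93 and 0.95. Of all tested genes 25.3% were higher at 6 °C and 21.8% at 22 °C, with medians of -0.11 and -0.02. From 22 to 6 °C 3 were higher and 3 lower, beside 16.9% and 17.4% of all tested genes. The step difference was negative for 6 of 8, beside 15.0% of all tested genes. Acacb, which makes the malonyl-CoA that restrains fatty acid import into mitochondria, rose by 2.21 ± 0.12 from 30 to 6 °C (adjusted p = 5.31e-08). Pcca and Mccc1, subunits of the mitochondrial propionyl-CoA and methylcrotonyl-CoA carboxylases, rose by 1.51 ± 0.12 and 1.06 ± 0.11. Pcx, the mitochondrial pyruvate carboxylase, was chosen after its values were seen: like Car5b it had its highest level at 22 °C, 1163 ± 96 CPM against 540 ± 81 at 30 °C and 938 ± 72 at 6 °C (SD, n = 4). In contrast to Car5b, no 22 °C mouse stood far above the others for Pcx, and its 22 and 30 °C ranges did not overlap.

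**Figure D2:**
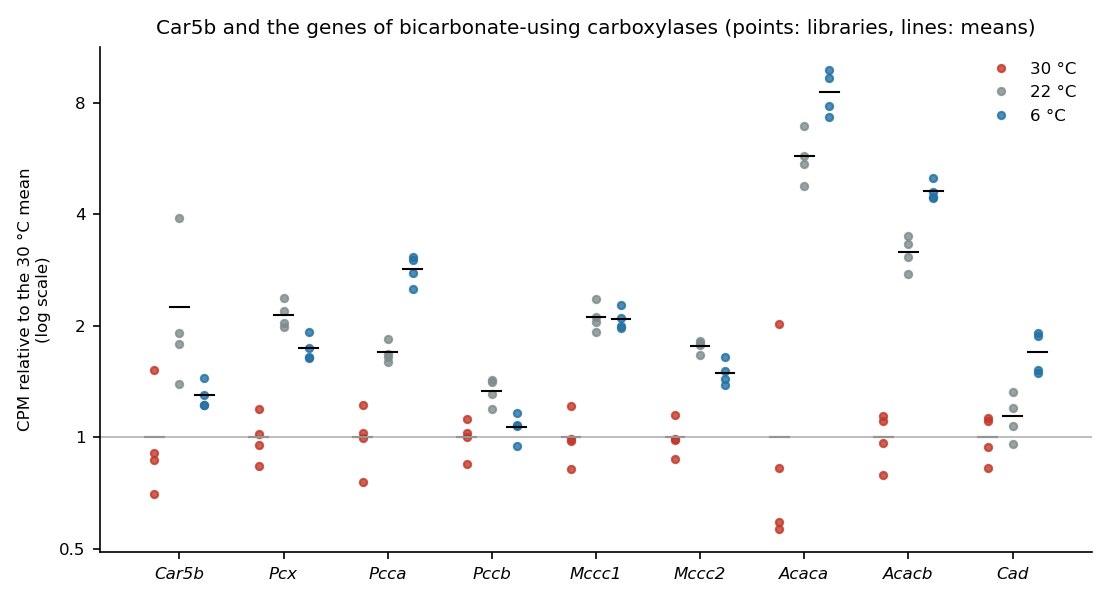
CPM of Car5b and of the 8 tested genes of bicarbonate-using enzymes, relative to each gene's mean at 30 °C (log axis). Points are single mice and lines are means. Car5b at 22 °C spreads from 68.8 to 193.7 CPM, a wider spread than that of any carboxylase gene at that temperature.

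The isoforms of the cell surface moved in different directions. Car14 (chr3:95897768-95904691, - strand, ENSMUSG00000038526) encodes a transmembrane isoform with its catalytic domain outside the cell. Its level was 17.7, 12.7, 11.2 and 6.99 CPM at 30 °C, 30.9, 26.3, 24.1 and 27.2 CPM at 22 °C and 12.4, 13.7, 12.2 and 9.86 CPM at 6 °C. Every 22 °C mouse lay above every mouse of the other groups, and the 6 °C range fell inside that of 30 °C. Car14 rose by 1.16 ± 0.22 (log2, SE; adjusted p = 1.04e-03) from 30 to 22 °C and fell by 1.17 ± 0.22 from 22 to 6 °C (adjusted p = 1.79e-03). The step difference was -2.33 ± 0.36 (adjusted p = 1.02e-03), and 6 °C differed from 30 °C by -0.01 ± 0.22 (adjusted p = 0.977; 95% interval -0.48 to 0.46). The calls were kept under each alternative run, including without 22 °C mouse 3 (1.21 and -1.21) and without mice A and B (0.83 and -1.15). Exons of Aph1a on the opposite strand cover 17.5% of the exon length of Car14, and reads of the 2 genes cannot be told apart there since the strand of the libraries is not given. Aph1a itself was at 7.01 to 7.76 CPM at 30 °C, 9.10 to 11.3 at 22 °C and 8.61 to 9.83 at 6 °C.

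Car4 (chr11:84957786-84966044, + strand, ENSMUSG00000000805) encodes an isoform anchored to the outer face of the membrane and well known from capillary endothelium. Its level was 39.3, 47.4, 49.8 and 47.1 CPM at 30 °C, 46.3, 48.5, 42.7 and 46.1 CPM at 22 °C and 27.8, 41.1, 28.0 and 33.6 CPM at 6 °C. The 6 °C mice lay below all 22 °C mice, and 6 °C mouse 2 alone lay within the 30 °C range. Car4 fell by 0.49 ± 0.12 (log2, SE) from 30 to 6 °C (adjusted p = 3.31e-03) and by the same amount from 22 to 6 °C (adjusted p = 6.98e-03). From 30 to 22 °C no difference was detected (-0.00 ± 0.12, adjusted p = 0.994; 95% interval -0.26 to 0.25). The sum of the 12 endothelial markers was 1568 to 1933 CPM at 30 °C, 1074 to 1212 at 22 °C and 1189 to 1252 at 6 °C. Against 30 °C, 9 of 12 were lower at 6 °C and 10 of 12 at 22 °C, beside 31.5% and 22.8% of all tested genes. From 22 to 6 °C 2 were higher and 1 lower, beside 16.9% and 17.4% of all tested genes. The part of endothelial content in the level of Car4 was not tested.

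Car9 and Car12 are transmembrane isoforms best known from hypoxic and epithelial tissue, and both were near the limit of detection. Car9 (chr4:43506966-43513729, + strand) had 2 to 27 counts per library, or 0.339, 0.281, 0.659 and 0.851 CPM at 30 °C, 0.297, 0.119, 0.189 and 0.352 CPM at 22 °C, and 0.248 to 0.487 CPM at 6 °C. The highest values were those of mice A and B, which also had the highest macrophage sums, and a link between them was not tested. Car12 (chr9:66713686-66766845, + strand) had 0 to 10 counts, with 0.126 to 0.281 CPM at 30 °C, 0 to 0.118 at 22 °C and 0.0406 to 0.201 at 6 °C. Its counts of 0 in 22 °C mice 1 and 2 allow up to 0.148 and 0.179 CPM (3 counts, counting error only). For Car9, 9.29% of the exon length lies under Gm12454 on the opposite strand.

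Car8 (chr4:8143362-8239041, - strand, ENSMUSG00000041261), the member with AGA in place of a zinc-site histidine codon, encodes a protein without carbon dioxide hydration activity that binds the inositol trisphosphate receptor. Its level was 5.45, 4.26, 4.76 and 3.40 CPM at 30 °C, 7.77, 6.74, 6.91 and 6.69 CPM at 22 °C and 7.43, 5.55, 8.14 and 4.62 CPM at 6 °C. The 22 °C mice lay above all 30 °C mice, and the 6 °C mice spread over both ranges. Car8 rose by 0.65 ± 0.19 (log2, SE) at 22 °C (adjusted p = 0.0123) and by 0.53 ± 0.19 at 6 °C (adjusted p = 0.0277), each against 30 °C. From 22 to 6 °C the difference was -0.12 ± 0.19 (adjusted p = 0.636). Both calls were lost without mice A and B (0.53, adjusted p = 0.0930, and 0.42, adjusted p = 0.141) and under scaling by total counts (0.40, adjusted p = 0.0789, and 0.21, adjusted p = 0.302). Neither call passed with the block by mouse number, a fit that also leaves out mice A and B (0.57, adjusted p = 0.0745, and 0.44, adjusted p = 0.113). That at 6 °C was also lost under upper quartile scaling (0.46, adjusted p = 0.0510), with the muscle covariate (0.43, adjusted p = 0.116) and without any 1 of 4 libraries (6 °C mice 1 and 3, 30 °C mice 2 and B), with the value then between 0.40 and 0.51.

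**Figure D3:**
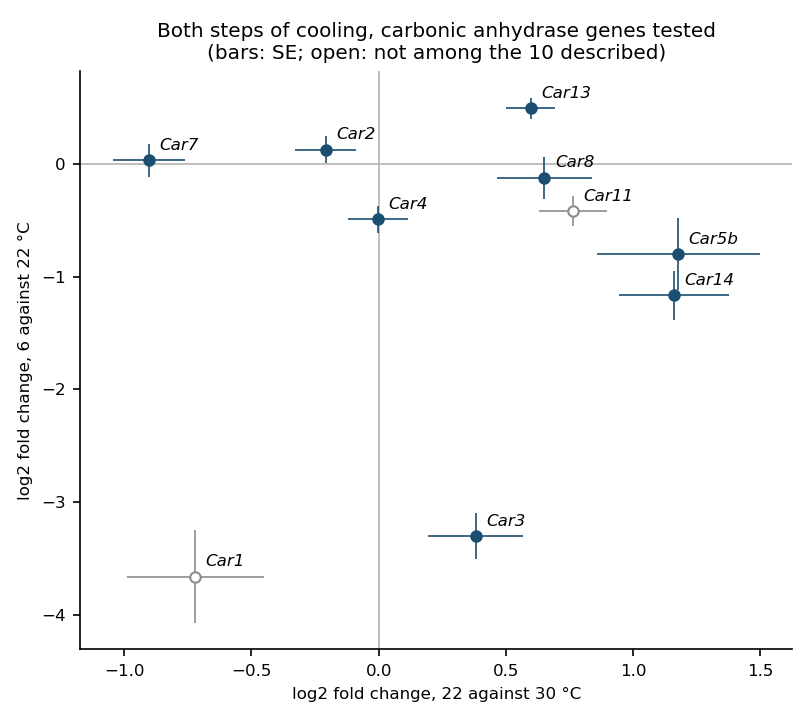
Log2 fold change from 30 to 22 °C (horizontal) and from 22 to 6 °C (vertical) for each tested family gene; bars are SE, and open symbols are Car1 and Car11, which are not among the 10. Car14 and Car5b lie at the lower right, Car13 alone is clearly positive on both axes, and Car3 and Car1 lie lowest.

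Per kilobase of exon, which lets the genes be compared with each other, Car3 stood at 2053 ± 424 CPM per kb (SD, n = 4) at 30 °C, 2673 ± 697 at 22 °C and 271 ± 45 at 6 °C. That was 88.0-fold, 114.5-fold and 9.72-fold above the next member, which was Car4 at 30 and 22 °C and Car13 at 6 °C. At 30 °C the order below Car3 was Car4, Car13, Car2, Car5b, Car14, Car7 and Car8, from 23.3 down to 1.16 CPM per kb. The ranges of Car2 and Car5b overlapped, as did those of Car5b and Car14. Car5b (up to 11.8) also overlapped Car13 (from 11.2). At 22 °C Car5b and Car14 stood above Car2, with overlap between Car13 and Car5b and between Car5b and Car14. Car5b (10.8 to 30.5) there also spanned the range of Car4 (21.7 to 24.7). At 6 °C Car13 (27.9 ± 3.0 CPM per kb) had passed Car4 (16.6 ± 3.2), and the ranges of these neighbours did not overlap. Car8 stood below Car7 at 30 °C and above it at 22 °C, with non-overlapping ranges at both. Car9 and Car12 were last at every temperature, at 0.231 CPM per kb or less.

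**Figure D4:**
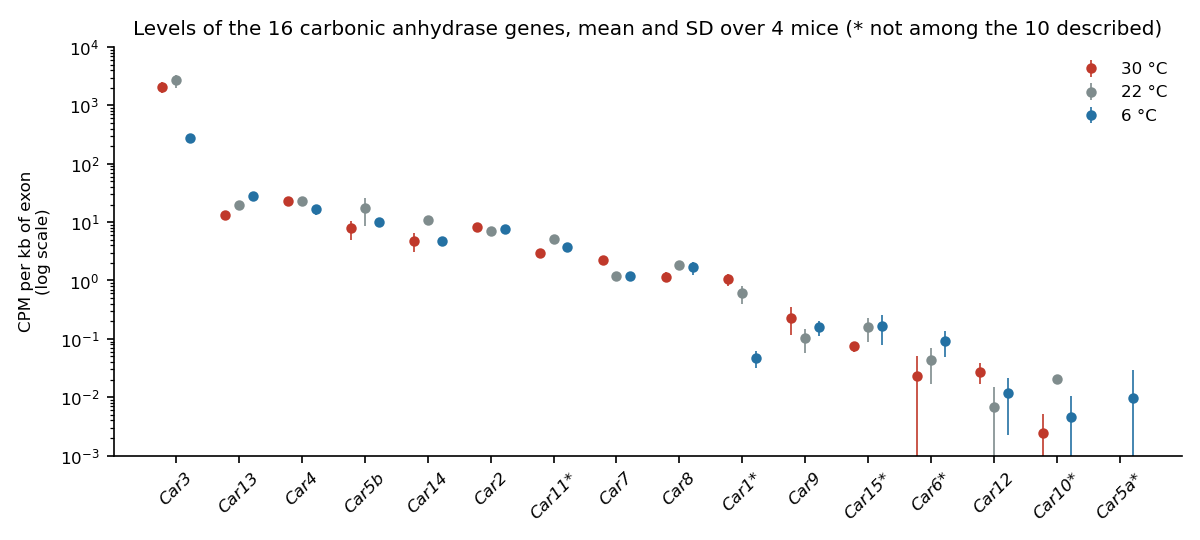
Mean level of all 16 family genes in CPM per kb of exon (log axis) at 30, 22 and 6 °C, with the SD over 4 mice as bars; a mean of 0 is not drawn. Car3 stands far above the other genes at 30 and 22 °C, and the gap narrows to 9.72-fold at 6 °C.

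Car13, Car3 and Car2 are neighbours, together with Car1, within 259044 bases of chromosome 3 (chr3:14641727-14900770), yet they did not change together. Car13 at one end rose at 6 °C, Car3 fell, and Car2 next to it did not pass the test. Car1, the red blood cell isoform and no member of the 10, lies between Car13 and Car3 on the opposite strand. It was at 1.69, 1.37, 0.99 and 1.20 CPM at 30 °C, 0.59, 0.66, 1.14 and 0.62 CPM at 22 °C and 0.035 to 0.081 CPM at 6 °C, where each library held only a few counts. Car1 fell by 4.38 ± 0.40 (log2, SE, adjusted p = 1.77e-06) from 30 to 6 °C. In that comparison 1 of the 6 tested red blood cell markers was lower and none higher, beside 31.5% and 25.3% of all tested genes. No exon of the 4 genes overlaps an exon of another gene. Car14 is on the same chromosome but far outside this stretch.

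**Figure D5:**
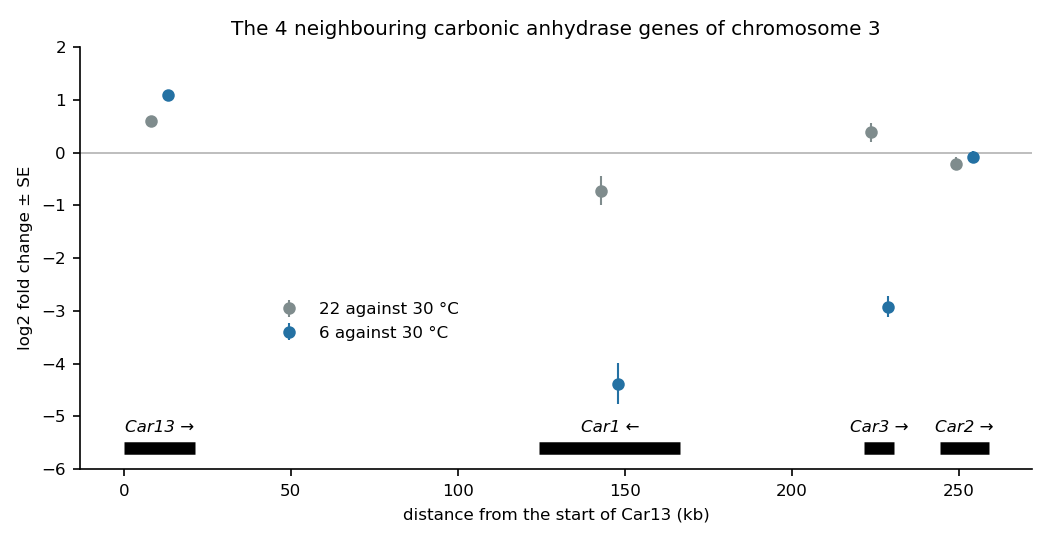
Log2 fold change ± SE against 30 °C (vertical) of the 4 neighbouring family genes, placed by distance in kb from the start of Car13; black bars are the genes and arrows their direction of transcription. At 6 °C Car13 lies above 0, Car1 and Car3 far below, and Car2 at about 0.

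The promoters of Car14 and Car5b are printed because both genes, alone among the members with a promoter available, had their highest mean at 22 °C. Car3 (5883, 7658 and 778 CPM at 30, 22 and 6 °C) and Car8 (4.47, 7.03 and 6.43 CPM) did too, but no promoter was available for them. The printed promoters are the 250 bases before the RefSeq start (GRCm38.p6), 5′ to 3′ on the gene's strand, and capitals mark motif matches.
Car14 (chr3:95904686-95904935, - strand): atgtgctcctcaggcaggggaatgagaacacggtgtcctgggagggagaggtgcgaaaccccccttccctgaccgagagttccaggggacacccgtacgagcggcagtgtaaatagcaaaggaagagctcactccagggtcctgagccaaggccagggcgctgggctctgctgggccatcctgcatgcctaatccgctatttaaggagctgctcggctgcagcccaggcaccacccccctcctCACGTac
Car5b (chrX:164028011-164028260, - strand): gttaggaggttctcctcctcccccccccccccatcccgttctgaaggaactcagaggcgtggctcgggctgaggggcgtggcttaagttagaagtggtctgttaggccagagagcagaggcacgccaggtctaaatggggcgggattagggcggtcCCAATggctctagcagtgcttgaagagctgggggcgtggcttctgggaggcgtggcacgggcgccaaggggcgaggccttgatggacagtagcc
The table of promoters held 6 of the 10 members: Car4, Car5b, Car7, Car9, Car12 and Car14. Both strands were searched for 6 motifs. The core of the hypoxia response element is ACGTG. The E-box CACGTG contains that core. The nuclear receptor site was searched as AGGTCA. The cyclic AMP response site was searched as TGACG. The CCAAT box and the TATA box (TATAAA) were the last. Car14 held ACGTG on the reverse strand 7 bases before the start, a motif found in 16.6% of 32851 promoters of this length, and Car5b held CCAAT 94 bases before the start, found in 33.8%. Car9 held ACGTG 18 bases and CCAAT 165 bases before the start. Car7, with 3 listed starts, held TGACG before one (17.8% of promoters) and AGGTCA before another (14.0%). Car4 and Car12 held none of the 6 motifs, and no member held CACGTG (6.02%) or TATAAA (12.4%). Car14 and Car5b had no motif in common in these windows.

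The genes whose log2 CPM ran most like each member's over the 12 libraries were looked up among 9907 genes whose mean reached 5 CPM. These correlations describe libraries that share temperature groups and depth, and carry no test. Closest to Car3 were Pla2g16 (Pearson r = 0.988), Cfd (0.987) and Adipoq (0.982). Closest to Car13 were March5 (0.985), Slc25a15 (0.984) and Sfxn5 (0.981). For Car7 they were Mpzl1 (0.970), Fscn1 (0.967) and Arhgef7 (0.965), and for Car14 Adhfe1 (0.967), Dpyd (0.956) and Gstz1 (0.940). For Car5b they were Exd1 (0.971), Lrsam1 (0.943) and Tenm4 (0.937), and for Car4 Meaf6 (0.961), Snrnp70 (0.942) and Srm (0.938). Car8 ran closest to Klb (0.956), Prkar2b (0.908) and Lrrc40 (0.904). Car2 had the weakest neighbours, Rnf220 (0.833), Rusc2 (0.821) and Utp14a (0.819).

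Other genes that move bicarbonate, protons, water and carbon dioxide are given beside the members by list, and their counts at 6 °C against 30 °C stand beside the 56.8% of all tested genes that passed. Of 14 bicarbonate transporter genes 7 were tested, with 2 higher and 2 lower at 6 °C against 30 °C (median log2 change -0.05). Slc4a4, a sodium bicarbonate cotransporter, rose from 88.6 ± 14.2 to 514 ± 85 CPM (SD, n = 4), by 2.54 ± 0.20 on the log2 scale (adjusted p = 9.94e-07). Slc26a6, an anion exchanger, rose by 0.89 ± 0.11, Slc4a7, another bicarbonate cotransporter, fell by 0.82 ± 0.09, and Slc4a8 differed by -0.05 ± 0.27. Of 14 genes of proton and monocarboxylate transport 12 were tested, with 4 higher and 5 lower (median -0.15). Bsg, a chaperone of some monocarboxylate transporters, rose by 1.93 ± 0.08, the lactate and pyruvate carrier Slc16a7 fell by 2.49 ± 0.16, and Slc9a2 differed by -0.29 ± 0.64.

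Of 11 water and gas channel genes 4 were tested, and 2 were lower at 6 °C: Aqp1, a water channel of endothelium and red blood cells that also passes carbon dioxide, by 2.53 ± 0.18 (it fell from 631 ± 122 to 109 ± 21 CPM), and Aqp7, the glycerol channel of adipocytes, which fell by 0.54 ± 0.08. All 16 genes of the hypoxia response listed beside Car9 were tested, with 9 higher and 3 lower at 6 °C against 30 °C and a median of 0.74. The list also holds Hif1a, Epas1 and Arnt, which encode subunits of the hypoxia-inducible factors. Egln3, Ldha and Egln1 rose by 2.99 ± 0.18, 1.69 ± 0.11 and 1.64 ± 0.11, while Vegfa differed by 0.10 ± 0.15. Car9, the family's own hypoxia-inducible gene, stayed at 0.487 CPM or less in the 6 °C mice.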

How the data were processed

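The deposited data are 1 table in which the authors gave raw counts of reads for each Ensembl gene in 12 brown fat libraries. The submitters' processing notes list FastQC 0.10.1, STAR 2.4.2a and edgeR 3.14.0, with GRCm38 and mm10 as builds, and assign them no role. Which program counted the reads, with which annotation and strand setting, is not given in the sources used here. Of the columns, 10 matched a title, and the other 2 were assigned to 30 °C by their letter alone.

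Differences were tested with edgeR 4.0.16 (R 4.3.3): filterByExpr (14870 genes kept), TMM, a robust glmQLFit on the 12 libraries with temperature as the factor, and two-sided glmQLFTest contrasts, with Benjamini-Hochberg adjustment across the 14870 genes. Standard errors are the log2 change divided by the square root of F. The script was tested on simulated counts of 14870 genes for 6 °C against 30 °C. It recovered 23 of 50 genes changed 1.5-fold and 28 of 50 changed 2-fold, so changes of this size can be missed. At 4-fold it recovered 46 of 50 and at 8-fold 47 of 50, and it called 5 unchanged genes. Libraries of a group differed by a chi-square of at least 20.9 per degree of freedom, so none was taken as a copy. The smallest library, of 18290162 counts, limits the precision of genes at a few CPM. GENCODE M21 gave names, positions (1-based) and exon lengths, and RefSeq gave promoters. For the zinc sites, coding sequences were translated and aligned to Car2 as proteins with Biopython 1.88. Aligned residues were then traced back to their codons.

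The members and gene lists were chosen with earlier results of these data known. Named besides all family genes were, for each pathway list, the 3 called members with the smallest p at 6 °C against 30 °C and 1 with a p of 0.5 or above, and for each member the 3 genes with the largest r. 1 gene that this rule names is not reported here. Alternatives were other scalings, filters, tests (DESeq2 1.42.0, limma 3.58.1) and thresholds, a muscle covariate, the mouse number as a block, and leaving out each library. The block fit left out mice A and B, which have no mouse number. The labels do not say that the number pairs mice across temperatures.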

Additional observations from a re-analysis of the deposited data

Results flagged for a closer look

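In each group of 4 mice, the highest or lowest value was compared with its nearest neighbour relative to the range of the group, by Dixon's 95% critical value. Chance alone gives about 1 in 20 groups, and 30 groups of 4 were examined (10 tested family genes at 3 temperatures). Car3 was at 10642 CPM in 22 °C mouse 3, and at 6522 to 6911 CPM in the other 22 °C mice. Car1, its neighbour on chromosome 3, was at 1.14 CPM in that mouse and at 0.594 to 0.656 CPM in the others. This library has the largest total and a library code of its own, and the part of either in these values was not tested. Car11 was at 4.32 CPM in 30 °C mouse B against 6.20 to 6.39 CPM in the other 30 °C mice. It was at 8.29 CPM in 6 °C mouse 2 against 6.98 to 7.11 CPM in the other 6 °C mice.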

How the results depend on the processing

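The 10 tested family genes gave 990 values under the alternatives: 878 kept direction and side of the threshold, 66 dropped below it, 10 passed newly and 36 changed sign, with the cause of each not tested. Every change of sign was of a difference that did not pass the test. The step difference of Car13 became 0.032 with numbered mice only, 0.038 with the replicate block and 0.095 under total counts. Car14 at 6 against 30 °C became 0.043 with DESeq2, 0.044 with RLE scaling, 0.085 with limma voom, 0.048 with the muscle covariate, 0.0013 with no filter, 0.034 with only the 2 temperatures, and -0.20 to 0.23 without single libraries. Car2 at 6 against 30 °C became 0.022 with numbered mice, 0.045 with the block, and -0.14 to 0.0036 without single libraries. Car4 at 22 against 30 °C became 0.0246 with DESeq2, 0.0251 with RLE, 0.0068 with no filter, 0.079 with numbered mice, 0.0023 with 2 temperatures, 0.15 with the block, and -0.069 to 0.041 without single libraries. Car5b at 6 against 30 °C became -0.055 with the block. At 6 against 22 °C Car7 became -0.020 under total counts and -0.037 to 0.11 without single libraries, and Car8 ran from -0.26 to 0.0035. Over all genes, scaling by total counts moved the medians and turned 3767 higher and 4677 lower genes at 6 against 30 °C into 1939 and 7888, and 3248 and 3386 at 22 against 30 °C into 1419 and 6224; the step difference was then negative for 1275 genes in place of 2227. An adjusted p under 0.01 left 1409 of 2511 higher and 1394 of 2580 lower at 6 against 22 °C, and 1134 of 2126 positive and 1102 of 2227 negative step differences. The 10 numbered libraries without a block gave 2151 higher at 22 against 30 °C. They already lost the calls of Car8, and those of Car5b at 22 against 30 °C and in the step difference. The replicate block was fitted to the same 10 libraries, so mice A and B were left out there too. Pairing of libraries by mouse number was not seen: same-numbered libraries correlated at -0.04 to 0.35, and 2 of 10 correlated best with their own number. With only mice 1 and 2 numbered at 30 °C, so few correlations cannot settle whether the numbers pair. The labels do not say that mice of the same number belong together. Several titles at 22 and 6 °C also carry another number than the mouse number, so the block may join unrelated mice. With the number as a replicate block, 1624 genes were higher and 1621 lower at 22 against 30 °C, 2871 lower at 6 against 30 °C, and the step difference was positive for 1278 and negative for 1190; among members, Car5b (22 against 30 °C 0.61, step -1.27), Car8 (22 and 6 against 30 °C, 0.57 and 0.44) and Car7 (step 0.81) did not pass, the step difference of Car4 passed (-0.65, adjusted p = 0.0381), and no other member call changed. Leaving out each library in turn gave 3434 to 3895 higher and 4144 to 4761 lower at 6 against 30 °C, 2618 to 3240 and 2861 to 3390 at 22 against 30 °C, 2020 to 2651 and 2090 to 2659 at 6 against 22 °C, and 1665 to 2292 and 1652 to 2419 step differences. Depth limits Car9, Car12 and Car1 at 6 °C, which rest on a few counts per library.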

Other observations

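Of the family genes outside the 10, Car11 is best known from brain and encodes a protein without carbon dioxide hydration activity; it kept 1 of the 3 zinc-site histidine codons. Like Car14 it was highest at 22 °C: 9.84 ± 0.77 CPM against 5.79 ± 0.98 at 30 °C and 7.34 ± 0.64 at 6 °C (SD, n = 4). It rose by 0.76 ± 0.13 (log2, SE) from 30 to 22 °C (edgeR's quasi-likelihood test, adjusted p = 5.97e-04) and fell by 0.42 ± 0.13 from 22 to 6 °C (adjusted p = 0.0284). The fall was lost with the muscle covariate (adjusted p = 0.0700), with no filter (0.0514) and without any 1 of 6 libraries (22 °C mice 1, 2 and 4, 6 °C mice 1, 3 and 4; adjusted p of 0.0502 to 0.0754). The difference of 0.35 from 30 to 6 °C (adjusted p = 0.0426) was lost under total counts (0.04, adjusted p = 0.802), upper quartile scaling (0.0882), no filter (0.0734), the muscle covariate (0.0865), the numbered mice only (0.178), the block (0.180) and without any 1 of 8 libraries (adjusted p of 0.0510 to 0.118). Car6 had 0 to 5 counts per library, Car10 0 to 10 and Car15 3 to 26, and these 3 were not tested.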
